A study of Rattus norvegicus with 26 samples.

Results

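The genes described here are 10 that carry the insulin signal in muscle and move the glucose transporter GLUT4: Slc2a4, Insr, Grb14, Grb10, Irs1, Irs2, Pik3r1, Akt2, Tbc1d1 and Tbc1d4. They were taken by symbol from a table of 34034 genes, and all 10 were among the 10064 genes that passed the filter on low counts. Messenger RNA was counted by 3' end sequencing in soleus, the slow postural muscle of the calf, from aged female rats of the 44th generation of lines bred for high (HCR) or low (LCR) running capacity. The groups were 5 HCR runners, 8 sedentary HCR rats, 5 LCR runners and 8 sedentary LCR rats. Runners lived in pairs with a wheel for more than 5 months, whereas the sedentary rats had no wheel, and all had standard chow and water at will. The wheel was shared and used at will, so the running dose of each rat is not known here. The runners were a cohort of their own, so cohort and running cannot be told apart, and cage mates could not be paired in the fits.

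In skeletal muscle, insulin binds its receptor, which phosphorylates the insulin receptor substrates. These recruit phosphatidylinositol 3-kinase (PI3K), whose lipid product activates AKT. AKT phosphorylates the Rab GTPase-activating proteins TBC1D4 and TBC1D1 and so lets vesicles carrying GLUT4 reach the surface, and contraction acts on the same proteins through AMP-activated kinase. Grb14 and Grb10 are related adaptors that bind the activated receptor and restrain it. Much of this pathway is set by phosphorylation and by the place of proteins in the cell, which transcript counts do not measure.

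Total counts, in megacounts (M) per library, averaged 1.49 ± 0.321 M in HCR runners (SD, n = 5), 1.85 ± 0.351 M in sedentary HCR rats (n = 8), 1.70 ± 0.280 M in LCR runners (n = 5) and 1.80 ± 0.321 M in sedentary LCR rats (n = 8). Slow fibre markers were abundant in every library, with Myh7, the slow myosin heavy chain, at a median of 11093 CPM, the count scaled to library size. In 2 runners, HCR running 5 and LCR running 5, the title names the opposite line, and both were kept under the line of their genotype. Of 11 genes that separated the sedentary lines without overlap and by at least 2-fold, HCR running 5 lay on the HCR side for 8, against 6 to 9 in the other HCR runners, and LCR running 5 for 2, against 1 to 3 in the other LCR runners. HCR running 4 had the lowest number of the HCR runners, 6. With line genes of at least 4-fold, 3 genes, HCR running 4 was on the HCR side for 1, the other HCR runners for all 3 and the LCR runners for 0. The 2-fold limit was chosen after seeing the data. Where leaving out these libraries ended a call, the value without them is given.

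Across the 10 genes, 2 differed between runners and sedentary rats when the running difference was averaged over the lines: Slc2a4 and Grb14, both higher in runners, in a comparison that called 38 of 10064 genes, 0.378%. Both calls lay near the threshold and were lost with depth as a covariate or without the deepest library of each sedentary group. The 10 genes were chosen with earlier results of these data known, so 2 of 10 beside that share is no test of the set. Pik3r1 was the only gene of the 10 to pass between the lines, and it was higher in HCR both in runners and in sedentary rats. The other 7, Insr, Grb10, Irs1, Irs2, Akt2, Tbc1d1 and Tbc1d4, passed the threshold in none of the 7 comparisons. Values below are CPM scaled by TMM factors, and differences are log2 fold changes with their standard errors (SE) and p-values adjusted over all 10064 genes (edgeR quasi-likelihood test, threshold 0.05). A 3' count is not divided by transcript length, so levels are compared between groups and not between genes.

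**Figure D1:**
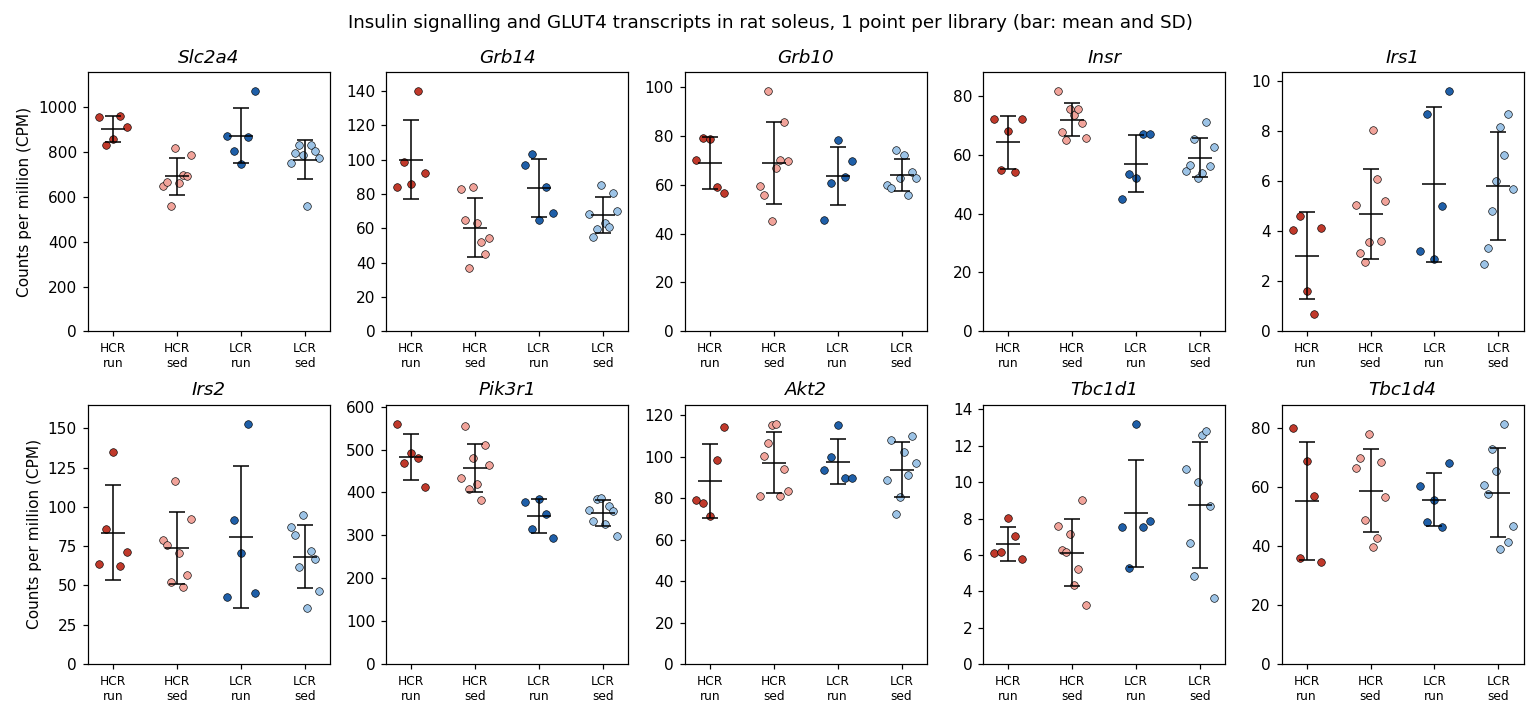
CPM of each of the 10 genes in every library on its own axis, with HCR runners, sedentary HCR, LCR runners and sedentary LCR as separate columns of points and the group mean and SD. Slc2a4 in the 5 HCR runners lay above all 8 sedentary HCR rats, and Pik3r1 in the 5 HCR runners above all 5 LCR runners.

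Slc2a4 encodes GLUT4, the transporter that insulin and contraction bring to the muscle surface. It stood at 831, 858, 961, 913 and 958 CPM in HCR runners 1 to 5, against 562 to 817 CPM (median 680) in 8 sedentary HCR rats. It stood at 872, 806, 748, 866 and 1073 CPM in LCR runners 1 to 5, against 559 to 831 CPM (median 790) in 8 sedentary LCR rats. Every HCR runner was above every sedentary HCR rat, whereas LCR runners 2 and 3 lay within the sedentary LCR range. Overlap was read for listed genes only. The share of all genes without overlap was not counted, so this separation is a description.

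Averaged over the lines, Slc2a4 was higher in runners by 0.29 (SE 0.07, 95% interval 0.15 to 0.42, adjusted p = 0.0491, edgeR), or 1.22-fold. Within HCR the difference was 0.39 (SE 0.10, adjusted p = 0.0857, edgeR), in a comparison that called 10 genes, 0.0994%. Within LCR it was 0.19 (SE 0.10, adjusted p = 0.829, edgeR), in a comparison that called 0 of 10064 genes, 0%. In LCR, 612 genes had an unadjusted p under 0.05, where 503 are expected if no gene differs, and DESeq2 called 2 genes and voom 0. The running difference in HCR less that in LCR was 0.20 (interval -0.08 to 0.48, adjusted p = 0.876, edgeR), so the lines were not shown to differ in response. That comparison of responses called 0 genes by edgeR, DESeq2 and voom (0%), with 592 at an unadjusted p under 0.05, beside the same 503 expected. By mean CPM the order was HCR runners (904 ± 58.2), LCR runners (873 ± 123), sedentary LCR rats (767 ± 88.0) and sedentary HCR rats (692 ± 80.8), and no neighbours in this order passed the threshold.

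The Slc2a4 call lay near the threshold and moved with library depth. Refits without 1 library in turn kept it in 3 of 26, those without HCR sedentary 4, HCR sedentary 8 or LCR running 3, with differences of 0.25 to 0.31 and adjusted p-values of 0.0229 to 0.125 (edgeR). Without both libraries whose titles conflict with their genotype the difference was 0.23 (adjusted p = 0.132). Over 12 alternatives of processing and sample choice it was called in 6. It was lost also with upper-quartile factors (adjusted p = 0.0688, edgeR) and with a stricter filter on low counts (0.0533). Within groups, Slc2a4 was lower in deeper libraries: its log2 CPM centred on group means correlated with log2 total counts at Pearson r = -0.797 and Spearman rho = -0.790 over 26 libraries. The permutation p-values were 1e-05, the smallest that the shuffles can give, and 2e-05, with adjusted values of 1e-04 and 2e-04 over the 10 genes. Without the 2 libraries of most extreme depth r was -0.698, and 12 of the 10064 genes tested, 0.119%, had an r as low or lower.

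The deepest library of each sedentary group had the lowest Slc2a4 of its group, 562 CPM in HCR sedentary 3 and 559 CPM in LCR sedentary 5. These libraries also had the lowest sum of slow fibre markers of their groups, 23245 and 27987 CPM, and the highest sum of fibroblast markers, 822 and 679 CPM. TMM factors also rose with depth (r = 0.807), and with scaling by total counts alone the r of Slc2a4 with depth was -0.541. With log2 total counts as a covariate the running difference of Slc2a4 was 0.19 (SE 0.05, adjusted p = 0.147, edgeR) averaged over the lines and 0.23 (adjusted p = 0.334) in HCR. Without the deepest library of each sedentary group it was 0.24 (SE 0.06, adjusted p = 0.0605). These relations were computed after the values were seen, and the part of depth in the running difference was not tested beyond them. The other 9 genes had adjusted permutation p-values from 0.158 to 0.807 for the Pearson relation with depth. Among them Tbc1d4 (r = -0.461, unadjusted permutation p = 0.0367) and Insr (r = -0.427, 0.0475) had the lowest r. Of all genes tested, 5.69% and 7.16% had an r as low or lower. With depth as a covariate the running difference of Tbc1d4 in HCR was -0.31 (adjusted p = 0.670, edgeR), against -0.10 in the main fit.

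**Figure D2:**
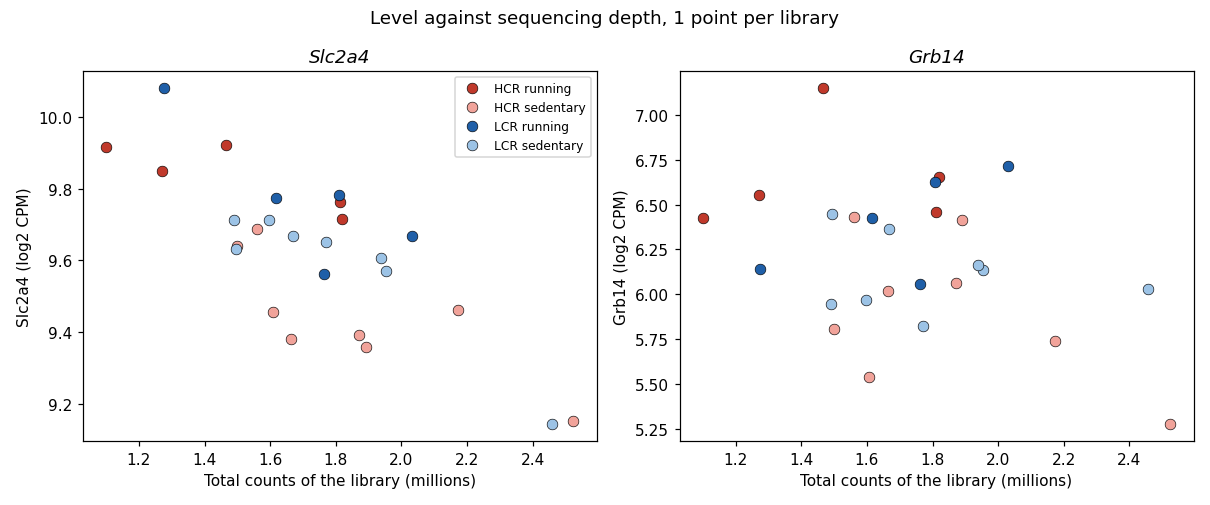
Log2 CPM of Slc2a4 (left) and Grb14 (right) against total counts, 1 point per library for 26 libraries, coloured by group. Slc2a4 falls as the total rises, with its lowest values in the 2 deepest libraries, and Grb14 shows no such trend within groups (r = -0.0927 after centring on group means).

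Fibre type markers differed in level between some groups. The summed CPM of 8 slow fibre markers averaged 38387 in HCR runners, 32932 in sedentary HCR rats, 35903 in LCR runners and 35415 in sedentary LCR rats, and the ranges overlapped (31902 to 44636 in HCR runners against 23245 to 44446 in sedentary HCR rats). In the running average all 8 slow markers were above 0 and 1 passed, Tnnc1 (troponin C of slow muscle), at 0.40 (adjusted p = 0.0425, edgeR). The summed CPM of 9 fast fibre markers averaged 3503 in HCR runners, 5727 in sedentary HCR rats, 9186 in LCR runners and 9497 in sedentary LCR rats. Of these, 1 of 9 was above 0 in the running average (median -0.36) and 0 passed. In the line average 1 of 9 was above 0 (median -0.73), and 4 of 9 were called lower in HCR, beside 3.75% of all genes called. The 8 endothelial markers summed to 252 CPM on average in HCR runners, 292 in sedentary HCR rats, 253 in LCR runners and 300 in sedentary LCR rats, with 0 of 8 above 0 in the running average, a median of -0.24 and 0 called. In the same average 1 of 6 adipocyte markers (median -0.44), 0 of 5 Schwann markers (-0.31), 1 of 6 fibroblast markers (-0.22) and 4 of 6 macrophage markers (0.13) were above 0, and 0 of each list were called. The part of cell composition in the results was not tested, and in whole muscle fewer cells of a type and less RNA per cell cannot be told apart.

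Grb14 and Grb10 are paralogues, and their promoters are shown because Grb14 alone of the pair differed between runners and sedentary rats, while both varied in opposite directions between animals of the same group. The sequence of Pik3r1 is shown with them as the gene that differed between the lines. Each covers 250 bases before to 50 after the annotated start, 5′ to 3′ on the gene's strand, from RefSeq on build GRCr8, in which 8 of the 10 genes matched and Slc2a4 and Irs2 did not. The windows are chr3:70091872-70092171 (minus strand) for Grb14, chr14:90816338-90816637 (minus strand) for Grb10 and chr2:34697611-34697910 (minus strand) for Pik3r1, and capitals mark GC boxes, the letters GGGCGG on either strand.
Grb14: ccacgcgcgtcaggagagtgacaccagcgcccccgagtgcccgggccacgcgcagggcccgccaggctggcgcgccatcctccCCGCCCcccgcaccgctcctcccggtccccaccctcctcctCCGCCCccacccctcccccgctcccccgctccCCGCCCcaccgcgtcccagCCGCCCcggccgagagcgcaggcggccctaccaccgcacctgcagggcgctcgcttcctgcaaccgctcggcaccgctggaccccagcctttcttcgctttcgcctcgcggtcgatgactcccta
Grb10: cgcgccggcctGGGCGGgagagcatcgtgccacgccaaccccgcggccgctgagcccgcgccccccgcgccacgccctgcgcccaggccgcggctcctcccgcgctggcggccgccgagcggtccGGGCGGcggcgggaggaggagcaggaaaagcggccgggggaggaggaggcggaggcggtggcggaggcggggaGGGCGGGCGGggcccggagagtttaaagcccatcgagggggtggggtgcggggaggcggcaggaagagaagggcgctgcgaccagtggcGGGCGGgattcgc
Pik3r1: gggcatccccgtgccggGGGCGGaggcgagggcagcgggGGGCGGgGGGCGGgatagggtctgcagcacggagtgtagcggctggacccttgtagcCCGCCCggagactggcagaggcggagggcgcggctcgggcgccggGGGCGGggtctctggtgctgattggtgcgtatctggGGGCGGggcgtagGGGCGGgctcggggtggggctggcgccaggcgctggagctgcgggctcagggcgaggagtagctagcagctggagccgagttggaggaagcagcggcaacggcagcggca

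Grb14 held 4 GC boxes in 300 bases of 77.0% GC, Grb10 held 5 in 79.7% GC, and Pik3r1 held 7 in 75.3% GC. Of 33469 promoters of the same length, 33.1% held at least 1 GC box and the median GC was 51.7%. Irs1, Tbc1d1 and Tbc1d4 held 3, 1 and 4 GC boxes, and Insr and Akt2 held 0. Other motifs were searched on both strands. The MEF2 site (CTA and TAG with 4 bases between), present in 3.84% of promoters, was in 0 of the 8. The FOXO letters GTAAACA, present in 3.78%, were in Insr alone. CCAAT, present in 37.5%, was in Pik3r1 and Tbc1d4, and the E box CANNTG, present in 72.1%, was in 7 of the 8, all but Grb10.

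Grb14 binds the activated insulin receptor and inhibits its kinase. HCR runners 1 to 5 had 98.7, 85.8, 140.1, 92.0 and 84.2 CPM, against 37.1 to 84.3 CPM (median 58.7) in 8 sedentary HCR rats. LCR runners 1 to 5 had 96.7, 103.2, 64.9, 83.9 and 68.9 CPM, against 54.8 to 85.3 CPM (median 66.0) in 8 sedentary LCR rats. The HCR groups met only at their edges, with HCR running 5 just below HCR sedentary 4, while the LCR groups overlapped in 3 of the 5 runners.

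Averaged over the lines, Grb14 was 1.44-fold higher in runners (0.53, SE 0.12, interval 0.29 to 0.76, adjusted p = 0.0425, edgeR). The difference was 0.74 in HCR (SE 0.16, adjusted p = 0.0621) and 0.31 in LCR (SE 0.16, adjusted p = 0.829), and the difference of these responses was 0.43 (interval -0.05 to 0.91, adjusted p = 0.852). Within HCR both Grb14 and Slc2a4 passed with DESeq2, Grb14 at an adjusted p of 0.00693 and Slc2a4 at 0.0167, and with voom Grb14 alone passed (0.0450). In that comparison edgeR called 10 genes, 0.0994%, and DESeq2 called more over all genes, as given in the closing section. These calls rest on the same libraries. The average was called in 10 of 26 refits without 1 library, at 0.45 to 0.57 with adjusted p-values of 0.0129 to 0.119. With log2 total counts as a covariate it was 0.50 (adjusted p = 0.104, edgeR), and without the deepest library of each sedentary group 0.47 (adjusted p = 0.0580). Over 12 alternatives of processing and sample choice the average was called in 8, and it was lost also with no filter on low counts (adjusted p = 0.0679, edgeR). Grb14 itself did not vary with depth in the way Slc2a4 did (r = -0.0927, permutation p = 0.680). Its mean order was HCR runners (100.2 ± 23.0 CPM), LCR runners (83.5 ± 16.8), sedentary LCR rats (67.9 ± 10.5) and sedentary HCR rats (60.5 ± 17.0), and no neighbours passed the threshold.

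Grb10, the paralogue of Grb14, likewise restrains the receptor and is stabilised by mTOR phosphorylation. It had 56.7 to 79.1 CPM (median 70.0) in HCR runners, against 45.0 to 98.3 CPM (median 68.4) in sedentary HCR rats. It had 45.7 to 78.1 CPM (median 63.3) in LCR runners, against 55.8 to 74.3 CPM (median 62.7) in sedentary LCR rats. The groups overlapped throughout, and the running average was -0.01 with an interval of -0.21 to 0.19 (adjusted p = 0.983, edgeR).

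Between animals of the same group Grb14 and Grb10 moved in opposite directions (r = -0.718, rho = -0.686, permutation p = 0.00043 and 0.00072, adjusted p = 0.0194 and 0.0293 over 45 pairs). HCR sedentary 3, for example, had the lowest Grb14 of its group at 37.1 CPM and the highest Grb10 at 98.3 CPM. HCR sedentary 4 had the highest Grb14 at 84.3 CPM and the lowest Grb10 at 45.0 CPM. These libraries also had the highest and lowest TMM factors of their group, 1.15 and 0.897. Their sums of slow fibre markers were the lowest and highest, 23245 and 44446 CPM, and the part of either in this relation was not tested. Without the 2 libraries farthest in Grb14, r was -0.569. Scaling by total counts alone gave r = -0.516 and the sedentary libraries alone r = -0.756, and the pair passed in neither (permutation test). The only other pair of the 45 to pass was Pik3r1 with Tbc1d4 (r = 0.620, rho = 0.619, adjusted permutation p = 0.0257 and 0.0293), at r = 0.576 without the 2 farthest libraries. It likewise passed neither with total counts alone (r = 0.478) nor in the sedentary libraries alone (r = 0.709). Slc2a4 and Grb14, the genes that were higher in runners, had r = 0.207 with each other.

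**Figure D3:**
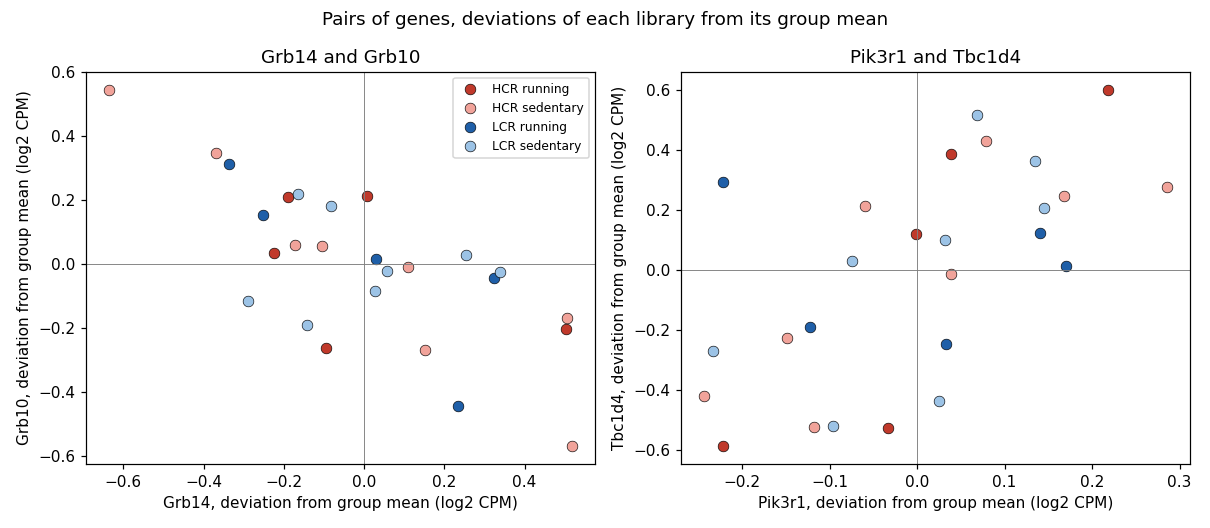
Log2 CPM centred on the group mean in 26 libraries for the pairs Grb14 with Grb10 and Pik3r1 with Tbc1d4, coloured by group. The first pair runs downward (r = -0.718) and the second upward (r = 0.620).

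Insr encodes the insulin receptor. HCR runners 1 to 5 had 54.99, 68.1, 54.2, 72.3 and 72.0 CPM, against 45.1, 53.6, 52.3, 67.0 and 67.2 CPM in LCR runners 1 to 5. Sedentary HCR rats had 65.0 to 81.7 CPM (median 72.2), against 52.0 to 71.2 CPM (median 56.4) in sedentary LCR rats. All 8 sedentary HCR rats were above the sedentary LCR mean, although the ranges overlapped. The line difference was 0.29 in sedentary rats (SE 0.09, interval 0.10 to 0.48, adjusted p = 0.0817, edgeR), where 274 genes were called (2.72%), and 0.23 averaged over activity (adjusted p = 0.0831). Running gave -0.12 on average (interval -0.27 to 0.04, adjusted p = 0.552).

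Irs1 and Irs2 encode the substrates that dock PI3K on the active receptor. Irs1 rested on few reads, with 1 to 22 counts per library and a median of 8. It stood at 4.63, 1.61, 0.704, 4.11 and 4.06 CPM in HCR runners 1 to 5, against 3.22, 8.68, 2.87, 5.01 and 9.60 CPM in LCR runners 1 to 5. Every HCR runner was below the LCR runners' mean of 5.88 CPM, but the groups overlapped, and the difference was -0.94 (SE 0.43, adjusted p = 0.525, edgeR). Over activity it was -0.63 (interval -1.17 to -0.10, adjusted p = 0.203). Irs2 had the highest fitted biological coefficient of variation of the 10 (0.346), which leaves out counting noise. Observed in CPM, the coefficient was higher for Irs1 than Irs2 in HCR runners (57.8% against 35.7%), sedentary HCR rats (38.1% against 30.6%) and sedentary LCR rats (37.0% against 29.4%). In LCR runners it was higher for Irs2 (56.0% against 52.8%). Irs2 ranged over 62.6 to 134.6 CPM in HCR runners, 49.2 to 116.5 CPM in sedentary HCR rats, 42.5 to 152.8 CPM in LCR runners and 35.6 to 94.6 CPM in sedentary LCR rats. The running average of Irs2 was 0.24, with an interval of -0.19 to 0.67 (adjusted p = 0.689).

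Pik3r1 encodes p85 alpha and its shorter forms, the regulatory subunits that hold the catalytic subunit of PI3K and bring it to the substrates. HCR runners 1 to 5 had 469, 492, 481, 412 and 560.1 CPM, against 378, 315, 386, 351 and 294 CPM in LCR runners 1 to 5. Sedentary HCR rats had 383 to 554 CPM (median 450), against 298 to 388 CPM (median 358) in sedentary LCR rats. The running groups did not overlap, and all 8 sedentary HCR rats lay above the sedentary LCR mean, with the ranges meeting only at 383 to 388 CPM. Here too the share of all genes without overlap was not counted.

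The line difference of Pik3r1 was 0.48 in runners (SE 0.10, adjusted p = 0.0132, edgeR), where 63 genes, 0.626%, were called. In sedentary rats it was 0.38 (SE 0.08, interval 0.21 to 0.54, adjusted p = 0.00551). Over activity it was 0.43 (SE 0.07, interval 0.30 to 0.56, adjusted p = 5.06e-05), or 1.35-fold, where 377 genes, 3.75%, were called. Its running average was 0.03 (interval -0.11 to 0.16, adjusted p = 0.914). Its order by mean was HCR runners (483 ± 52.9 CPM), sedentary HCR rats (457 ± 56.9), sedentary LCR rats (352 ± 30.7) and LCR runners (345 ± 39.6). Within a line the neighbours did not pass the threshold, and the sedentary HCR and sedentary LCR groups did.

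Markers of fibre types and of other cells stood beside this line difference. Of 9 fast fibre markers 4 were called lower in HCR in the line average (median -0.73, edgeR), beside 3.75% of all genes. Their summed CPM averaged 3503 in HCR runners against 9186 in LCR runners, and 5727 in sedentary HCR rats against 9497 in sedentary LCR rats. Of 8 slow fibre markers 5 were above 0 in the line average (median 0.05) and 0 were called. The summed CPM of 8 adipocyte markers averaged 326 in HCR runners against 262 in LCR runners, and 395 in sedentary HCR rats against 294 in sedentary LCR rats. Adipoq was low, at a median of 10.9 CPM, and Lep was at 0 in 3 libraries. The 8 macrophage markers averaged 271 CPM in HCR runners against 254 in LCR runners, and 288 in sedentary HCR rats against 230 in sedentary LCR rats. Of each of these lists 6 genes were tested, and in the line average all 6 were above 0 and 0 passed. Of 8 endothelial markers 1 was called, Vwf, lower in HCR (-0.51, adjusted p = 0.0294, edgeR), and 0 of 6 fibroblast markers passed. Of 5 Schwann markers 4 were above 0 in the line average (median 0.28), and 1 was called lower in HCR. Their part in the line difference was not tested.

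The sedentary call of Pik3r1 held in 26 of 26 refits without 1 library and in all 13 other alternatives. The call in runners held in 23 of 26, and was lost without LCR running 2 (adjusted p = 0.0572), HCR running 5 (0.0611) or LCR running 5 (0.0616). With both libraries of conflicting title left out it was 0.38 (adjusted p = 0.173), and with the title's line in place of the genotype it was 0.12 (adjusted p = 0.997). The call over activity held without both libraries and was lost with the title's line, at 0.25 (adjusted p = 0.140). Both lines were read against 1 reference, and whether their sequences differ where reads are counted was not tested for Pik3r1 or other line genes.

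**Figure D4:**
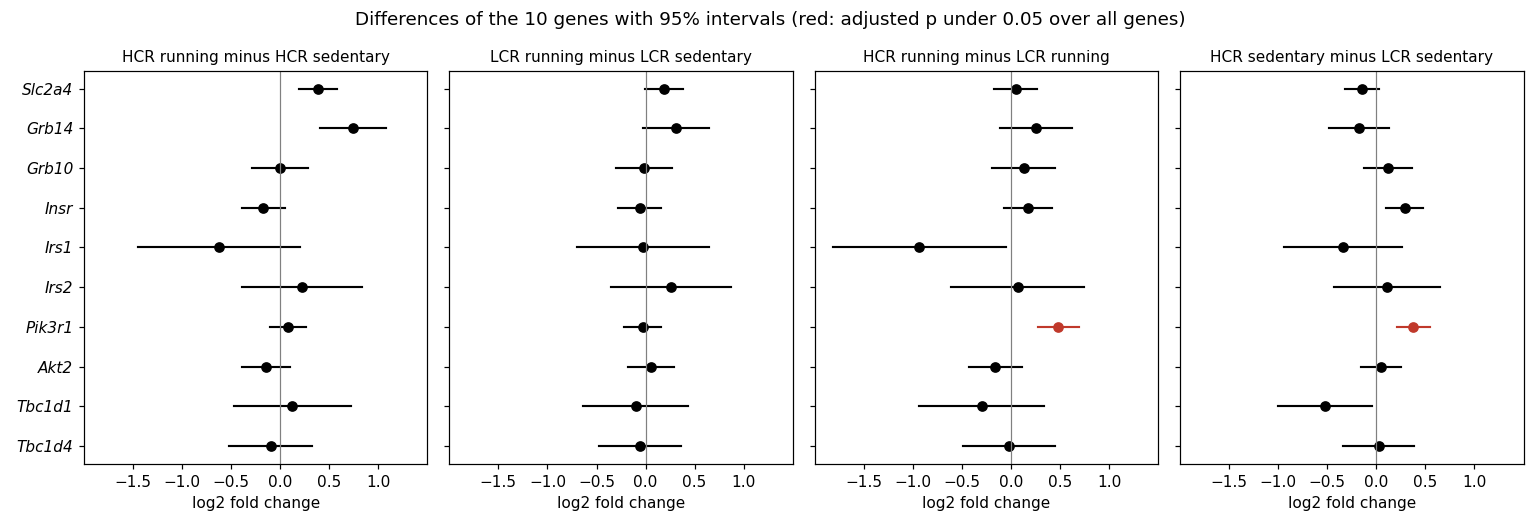
Log2 fold change (x axis) and 95% interval of each of the 10 genes in 4 panels, running minus sedentary in HCR and in LCR, then HCR minus LCR in runners and in sedentary rats, with adjusted p under 0.05 in red. Pik3r1 alone is red, in both line panels, at 0.48 and 0.38; Slc2a4 and Grb14 lie at 0.39 and 0.74 in HCR.

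Akt2 encodes the AKT isoform that carries the insulin signal to glucose uptake. It had 71.3 to 114.2 CPM (median 79.1) in HCR runners, 80.9 to 115.8 CPM (median 97.2) in sedentary HCR rats, 89.6 to 115.4 CPM (median 93.5) in LCR runners and 72.2 to 110.2 CPM (median 94.0) in sedentary LCR rats. The 4 groups overlapped. The running average was -0.05 (interval -0.21 to 0.12, adjusted p = 0.874, edgeR) and the line average -0.06 (interval -0.22 to 0.11, adjusted p = 0.824).

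Tbc1d4 (AS160) and Tbc1d1 are the Rab GTPase-activating proteins that hold GLUT4 vesicles inside the fibre until they are phosphorylated. Tbc1d4 had 34.5 to 80.2 CPM (median 57.0) in HCR runners, 39.6 to 77.9 CPM (median 61.7) in sedentary HCR rats, 46.4 to 68.1 CPM (median 55.7) in LCR runners and 38.9 to 81.4 CPM (median 59.1) in sedentary LCR rats. Its running average was -0.08 (interval -0.37 to 0.22) and its line average 0.00246 (interval -0.29 to 0.30). Tbc1d1 rested on 5 to 34 counts per library. It had 3.26 to 9.0 CPM (median 6.24) in sedentary HCR rats, against 3.63 to 12.8 CPM (median 9.33) in sedentary LCR rats, and 1 of the 8 HCR rats lay above the LCR mean. The difference was -0.52 (SE 0.24, adjusted p = 0.264, edgeR). In runners it had 5.75 to 8.05 CPM (median 6.17) in HCR, against 5.31 to 13.2 CPM (median 7.52) in LCR, a difference of -0.30 (adjusted p = 0.854).

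The wider pathway was read from 6 lists with 141 other genes, of which 126 were tested. In the running average 0 of the 126 passed the threshold (edgeR), beside 0.378% of all genes. Of the 126, 14 had an unadjusted p under 0.05, beside 1279 of 10064 (12.7%), a share near the background, and the median difference was -0.00511, with 61 above 0, beside -0.00404 over all 10064 genes. Over the 10 genes described here the median was -0.000155. None of the 6 lists had a called gene in HCR or LCR runners against their sedentary rats, where 0.0994% and 0% of all genes were called.

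In that running average the genes of smallest p in each list had these values. Among regulators of Slc2a4 transcription, Ppargc1a, the coactivator of mitochondrial genes, stood at 0.48 (SE 0.12, adjusted p = 0.0569, edgeR), and Klf15, a glucocorticoid-responsive factor, at 0.43 (adjusted p = 0.153). Among glucose entry genes and insulin targets, Fbxo32, the atrophy ubiquitin ligase that FOXO factors drive, stood at 0.39 (adjusted p = 0.0549), and Ppp1r3c, a glycogen-targeting phosphatase subunit, at 0.33 (adjusted p = 0.356). Ppargc1a had 46.7 ± 5.56 CPM in HCR runners and 38.8 ± 9.69 CPM in sedentary HCR rats, and 55.6 ± 17.5 CPM in LCR runners and 34.1 ± 4.65 CPM in sedentary LCR rats. Fbxo32 had 309 ± 43.9 CPM in HCR runners and 206 ± 42.9 CPM in sedentary HCR rats, and 257 ± 48.6 CPM in LCR runners and 225 ± 29.8 CPM in sedentary LCR rats.

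In the remaining 4 lists no value came near the threshold. Receptor regulators gave -0.33 for the phosphatase gene Ptpn2 (adjusted p = 0.258, edgeR). The PI3K and mTOR module gave -0.30 for Mlst8 (adjusted p = 0.161) and -0.58 for the AKT-binding pseudokinase gene Trib3 (adjusted p = 0.412). GLUT4 vesicle traffic gave 0.17 for the exocyst subunit Exoc3 (adjusted p = 0.318) and 0.13 for Rab10, a target of TBC1D4 in adipocytes (adjusted p = 0.336). The kinase list gave 0.10 for Prkag1 (adjusted p = 0.612) and -0.13 for Prkag2 (adjusted p = 0.762), both encoding AMP-activated kinase subunits.

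Between the lines, 6 of the 126 passed when averaged over activity, 2 higher and 4 lower in HCR, beside 1 of the 10 genes and 3.75% of all genes. Pik3c2a, a class II PI3K catalytic subunit, was 1.99-fold lower in HCR (SE 0.14 on the log2 scale, adjusted p = 2.93e-05, edgeR), at 38.8 ± 10.2 CPM in HCR runners against 88.5 ± 18.3 CPM in LCR runners, and 42.5 ± 6.40 CPM in sedentary HCR rats against 76.2 ± 22.9 CPM in sedentary LCR rats. It passed in runners (-1.15, adjusted p = 0.00554), where the groups did not overlap (share over all genes not counted), and in sedentary rats (-0.84, adjusted p = 0.00409). Igf1r, the receptor for insulin-like growth factor 1, was higher in HCR (0.38, SE 0.09, adjusted p = 0.00877). Sh2b2, an adaptor of the insulin receptor, was lower (-0.99, adjusted p = 0.0180), and so were the bifunctional glycolytic enzyme Pfkfb2 (-0.48, adjusted p = 0.0192) and the mTOR subunit Mlst8 (-0.34, adjusted p = 0.0410). Ralgapa1, a subunit of the Ral GTPase-activating complex, was higher (0.25, adjusted p = 0.0455). Ralgapa1 kept its call in 5 of 26 refits without 1 library, Mlst8 in 10, Pfkfb2 in 24, Sh2b2 in 25, and Igf1r and Pik3c2a in 26. Sh2b2 lost it without LCR running 2 (adjusted p = 0.0582, edgeR) and with voom (adjusted p = 0.0794). Pfkfb2 lost it without HCR running 3 (0.0526, edgeR) or LCR running 5 (0.0503). Sh2b2 also passed in sedentary rats (-1.05, adjusted p = 0.0468, edgeR), a call kept in 7 of 26 refits without 1 library. That sedentary call was lost without both libraries of conflicting title (adjusted p = 0.0680) and with the title's line (0.0700). Without both libraries of conflicting title, Pfkfb2 was at -0.37 (adjusted p = 0.0994), Mlst8 at -0.34 (0.0762) and Ralgapa1 at 0.25 (0.0653), and Pik3c2a in runners at -1.01 (0.0569). With the title's line all 6 calls over activity were lost: Pik3c2a was at -0.68 (adjusted p = 0.0890), Igf1r at 0.30 (0.108), Sh2b2 at -0.86 (0.0978), Pfkfb2 at -0.18 (0.660), Mlst8 at -0.29 (0.154) and Ralgapa1 at 0.20 (0.210). Pik3c2a was then at -0.51 (adjusted p = 0.997) in runners and -0.84 (0.0677) in sedentary rats.

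**Figure D5:**
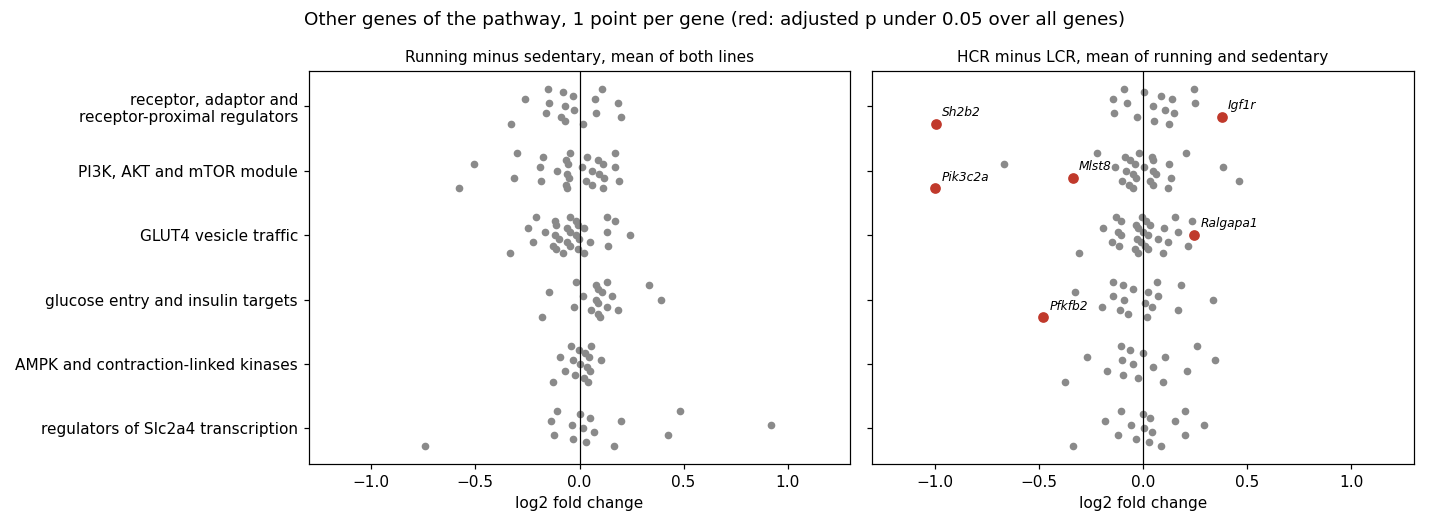
Log2 fold change of the other pathway genes by list in the running average and the line average, with called genes marked. Called genes appear in the line average only, where Pik3c2a is the lowest of the called genes, 1.99-fold lower in HCR.

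The genes most like Slc2a4 across the 26 libraries, by Pearson r of log2 CPM centred on group means, were Mdh1 (cytosolic malate dehydrogenase, r = 0.911), Uqcr10 (complex III, 0.889), Mybpc1 (myosin-binding protein C of slow fibres, 0.880), Atp5mc1 (ATP synthase, 0.876) and Hsd17b10 (a mitochondrial dehydrogenase, 0.874), out of 6426 genes compared. These genes were also lower in deeper libraries, with an r with depth of -0.784, -0.674, -0.784, -0.745 and -0.728. None of the 5 was called in the running average, where Atp5mc1 stood highest at 0.26 (adjusted p = 0.131, edgeR). For Grb14 the likeness was lower, with Ccdc43 at 0.684, Mif at 0.680, Crim1 at 0.673, Tex261 at 0.672 and Smim19 at 0.661.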

How the data were processed

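RNA from 26 soleus samples, 1 library per animal as the labels describe, was primed from the poly(A) tail and sequenced as single-end reads, per the labels' protocols. The deposited values are raw counts of reads per gene, which the authors did not scale, and 0 columns belonged to no sample. Tools named in the submitters' processing notes, with no version, are STAR, featureCounts, cutadapt, UMI-tools, FastQC and MultiQC, with the build mRatBN7.2. The collapsing of molecular identifiers and the strand setting are not given in the sources used here, so overlapping and antisense genes are uncertain and depth may overstate precision. Replicates are the samples the labels list, and p-values measure the spread between them.

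Counts were tested in R 4.3.3 with edgeR 4.0.16 (robust quasi-likelihood F test, TMM factors, filterByExpr by group, Benjamini-Hochberg at 0.05) in 1 fit of 4 group means over 26 libraries. Log2 CPM used a prior count of 2. The 7 comparisons were running in each line and averaged, line in each activity and averaged, and the difference of responses. DESeq2 1.42.0, limma 3.58.1 voom, other scaling factors and filters, a replicate block, the title's line and leaving out libraries were alternatives. Correlations used permutation within groups (1e+05 shuffles). The fits were run on simulated counts for running in HCR and for the line in sedentary rats only. The averages over lines and over activity were not simulated, and the outcome is not given here. Among 76 pairs of libraries of the same group, the lowest chi-square per gene was 2.26, so none was counted as a duplicate. The 10 genes and the lists were chosen with earlier results of these data known. All 10 are named, with the called genes of each list, the 2 of smallest p per list in the running average, and the 5 genes most like Slc2a4 and Grb14. Of the genes this rule names, 1 is not reported here.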

Additional observations from a re-analysis of the deposited data

Results flagged for a closer look

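Among 40 groups of libraries tested for an isolated value, 2 had one, and chance gives about 2. Slc2a4 in LCR sedentary 5, the deepest library of its group, stood at 559 CPM, below the next lowest library at 754 CPM. Grb14 in HCR running 3 stood at 140.1 CPM, above the next highest at 98.7 CPM. Without HCR running 3, the Grb14 running difference was 0.59 in HCR and 0.45 averaged over the lines (edgeR).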

How the results depend on the processing

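Of 2697 refitted values of the 10 genes, 2625 kept their direction and side of the threshold or moved by less than their error, 55 lost and 7 gained a call, 10 moved further and 0 reversed. Among values never called, 141 of 2498 changed sign. The same-numbered libraries did not vary together (r of deviations -0.221 to 0.257 over 33 pairs, 3 over 0.1), so the replicate block is no pairing; with it the running average called 19 genes and 0 of the 10 genes.

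In HCR running, 79 genes and 2 of the 10 were called with DESeq2, 1 of the 10 with voom, and 5 genes with depth as a covariate. In LCR running, DESeq2, no filter and the depth covariate each called 2 genes, and leaving out both conflicting libraries called 1. In the running average, DESeq2 called 80 genes, voom 58, the depth covariate 12 (0 of the 10) and leaving out both deepest sedentary libraries 20 (0 of the 10). Upper-quartile factors, a stricter filter and leaving out the conflicting libraries each called 1 of the 10, Grb14, with Slc2a4 lost. No filter also called 1 of the 10, Slc2a4, with Grb14 lost. Between running lines, the 2 groups alone called 35 genes, leaving out the conflicting libraries 35 (0 of the 10) and the title's line 0 (0 of the 10). Averaged over activity the title's line called 137 genes and 0 of the 10. Of the 45 pairs, 0 passed without TMM factors and 0 in sedentary libraries. The depth covariate and the omission of the deepest libraries were chosen after seeing the data, and these causes were not tested.

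Refits without 1 library called 4 to 38 genes for HCR running (4 without HCR running 3, 38 without HCR sedentary 4), with 0 to 2 of the 10. They called 0 to 2 for LCR running, and 9 to 63 for the running average (9 without LCR running 1, 63 without LCR running 5), with 0 to 2 of the 10. They called 182 to 337 for the sedentary lines (182 without LCR sedentary 7), 32 to 67 for the running lines (32 without HCR running 3; 0 to 1 of the 10), 315 to 403 for the line average and 0 for the difference of responses. Irs1, at a median of 8 counts per library, had the widest interval of the 10 genes in all 7 comparisons.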
